A study of Mus musculus with 12 samples.

Results

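The Krüppel-like factors (KLF) are DNA-binding proteins with zinc fingers at their carboxyl end that recognise GC-rich and CACCC sequences, and their amino-terminal parts recruit either coactivators or corepressors. In neurons of the retina and brain the family is best known for its opposed effects on axon growth, since KLF6 and KLF7 favour it and KLF4 and KLF9 restrain it. Several members are also early response genes that are induced by glucocorticoids, TGF-beta or injury. Of the 55487 genes in the deposited gene table, 10 are described here, chosen by an exact match of their names: Klf2, Klf3, Klf4, Klf6, Klf7, Klf9, Klf10, Klf12, Klf13 and Klf15. Other genes named Klf are treated only as a comparison list.

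The data are RNA-seq of mouse retina, with 12 libraries in 6 groups of 2. Wild-type retinas (WT, C57BL/6J), retinas of WT mice that received 2 μL of AAV2.7m8 with the pU6-shPax6-GFP construct against Pax6 (shPax6), and retinas of Jnk3-/- mice (JNK3 KO, which lack the stress kinase encoded by Mapk10 in all cells) were each injected into the vitreous with 1 μL of PBS or with 1 μL of 40 mM NMDA (40 nmol), an agonist of glutamate receptors that is toxic to inner retinal neurons. By the study's methods the mice were 2 months old, retinas were collected 24 h after injection, and each library was made from poly(A) RNA of more than 3 pooled retinas. Retinas given the shScramble control vector are not among the 12 libraries, so infection and knockdown of Pax6 cannot be told apart, and the AAV reached only those cells that it infected. The study calls its replicates biological, each a pool of retinas. The p-values rest on the spread between the 2 pools of a group, shared for each gene over all 6 groups. In whole retina, fewer cells of a type and less RNA per cell cannot be told apart.

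Levels are FPKM, scaled by transcript length and library size, and their read depth is unknown. The limma model was run on log2(FPKM + 0.1) over 16471 genes with a mean above 1 FPKM in at least 1 group, and a gene was called where its p, adjusted over all of them by Benjamini-Hochberg, was under 0.05. The added 0.1 understates the change of low genes. All 10 KLF genes passed the filter, but Klf4 passed only through the shPax6 NMDA group, where its mean was 1.37 FPKM, so its difference there was favoured by the filter.

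The WT NMDA libraries stood apart from the other 10 libraries. Their FPKM summed to 805627 and 820180, against 541210 to 576922 elsewhere, and their difference from WT PBS depended on transcript length: the median log2 difference of all genes was 1.03 for genes with a spliced length under 1 kb, 0.52 at 1 to 2 kb, -0.32 at 2 to 4 kb and -1.17 above 4 kb. Neutrophil markers summed to 1947 and 1985 FPKM in WT NMDA, against 212 to 235 in WT PBS, and 4 of their 6 genes rose (26.0% of all genes). Their sum also rose in shPax6, from 5.16 to 6.09 FPKM under PBS to 66.41 to 73.0 after NMDA. There 5 of the 6 rose, against 19.1% of all genes. In JNK3 KO it fell from 155.9 to 169.5 FPKM to 13.12 to 13.94, and 4 of the 6 fell, against 6.10% of all genes. Retnlg and Ly6g were at 0 in at least 1 library. Markers of retinal ganglion cells (RGCs) summed to 487 to 504.3 FPKM in WT PBS, 286.7 to 308.6 in WT NMDA, 144.4 to 146.5 in shPax6 PBS, 37.29 to 44.12 in shPax6 NMDA, 464.5 to 504.6 in JNK3 KO PBS and 113.7 to 115.9 in JNK3 KO NMDA, with Pou4f2 and Isl2 at 0 in at least 1 library. No rod, cone, bipolar, amacrine or Müller glia marker was at 0 in any library. The targeted gene Pax6 measured 173.48 and 177.3 FPKM in the WT PBS pair, 94.56 and 92.84 in shPax6 PBS, but 55.42 and 53.81 in WT NMDA. Mapk10 measured 42.79 and 50.72 FPKM in the WT PBS pair, 9.47 and 8.75 in JNK3 KO PBS, but 8.98 and 6.0 in WT NMDA. The part of the length trend and of these cell types in the KLF results was not tested, and values with the trend of every library on spliced length subtracted (the length correction) are given beside the calls in WT and between genotypes.

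The promoters of the KLF genes were read from RefSeq (GRCm38.p6), which gave a window of 250 bases before and 50 bases after the start site for 9 of the 10 genes, all except Klf10. Their median GC content was 69.3% (45.7% to 76.7%), against 52.7% over 32851 promoters. The GC box GGGCGG, on either strand, was found in 7 of the 9 windows and in 35.7% of all promoters, and the CACCC box in 7 of the 9 and in 57.5%. The remaining motifs searched were the TATA box TATAAA (1 of 9, 13.6% of all), the E-box CACGTG (3 of 9, 7.15%), the CRE TGACGTCA (0 of 9, 1.79%), the AP-1 letters TGANTCA (1 of 9, 7.81%) and the CArG box (0 of 9, 1.63%). These too were read on either strand. Klf9, Klf7 and Klf12, which moved most alike over the 12 libraries, and Klf2, which moved least like them, are printed with GC boxes and CACCC boxes of either strand in capitals. They lie at chr19:23140976-23141275 on the plus strand (Klf9), chr1:64121340-64121639 on the minus strand (Klf7), chr14:100149747-100150046 on the minus strand (Klf12) and chr8:72318812-72319111 on the plus strand (Klf2).

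Klf9 promoter: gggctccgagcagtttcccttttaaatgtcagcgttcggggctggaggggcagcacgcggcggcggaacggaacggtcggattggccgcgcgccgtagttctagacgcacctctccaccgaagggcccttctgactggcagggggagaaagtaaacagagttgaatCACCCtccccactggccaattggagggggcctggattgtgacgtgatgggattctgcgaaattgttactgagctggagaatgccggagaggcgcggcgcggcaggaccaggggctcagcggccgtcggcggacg
Klf7 promoter: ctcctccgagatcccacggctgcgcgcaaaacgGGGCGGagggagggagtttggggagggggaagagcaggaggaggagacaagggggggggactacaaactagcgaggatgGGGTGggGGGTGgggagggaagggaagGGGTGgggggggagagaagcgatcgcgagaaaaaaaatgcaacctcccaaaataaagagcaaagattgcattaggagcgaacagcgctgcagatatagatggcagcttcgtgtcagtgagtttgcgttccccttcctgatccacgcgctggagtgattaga
Klf12 promoter: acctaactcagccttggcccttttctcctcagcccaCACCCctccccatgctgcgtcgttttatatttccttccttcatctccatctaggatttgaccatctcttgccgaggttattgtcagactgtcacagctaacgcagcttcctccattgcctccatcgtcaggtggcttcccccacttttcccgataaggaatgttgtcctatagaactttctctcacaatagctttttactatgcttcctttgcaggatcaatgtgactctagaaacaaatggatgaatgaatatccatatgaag
Klf2 promoter: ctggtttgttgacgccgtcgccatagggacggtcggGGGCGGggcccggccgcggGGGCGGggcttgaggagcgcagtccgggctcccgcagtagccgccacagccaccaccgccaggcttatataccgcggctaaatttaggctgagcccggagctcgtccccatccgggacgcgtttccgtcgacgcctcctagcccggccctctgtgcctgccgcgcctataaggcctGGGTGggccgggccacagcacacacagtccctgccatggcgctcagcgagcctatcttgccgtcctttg

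The Klf9 window holds 1 CACCC box, no GC box and 1 AP-1 match, and the Klf7 window 1 GC box and 3 CACCC boxes. The Klf12 window, which has the lowest GC content of the 9, holds 1 CACCC box and the only match to TATAAA, on the opposite strand (printed as tttata). The start site of this window lies 134883 bases inside the annotated gene. The Klf2 window holds 2 GC boxes and 1 CACCC box. These matches describe the letters only.

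In the WT PBS retina Klf9 was by far the highest of the 10 at 31.4 FPKM, followed by Klf6 (11.3), Klf12 (8.94), Klf13 (6.90), Klf3 (6.02), Klf10 (5.38), Klf7 (4.84), Klf15 (3.12), Klf2 (1.9) and Klf4 (0.53), each a mean of 2 libraries on the FPKM scale, which is per length. The libraries of neighbours in this order overlapped between Klf13 and Klf3, Klf3 and Klf10, and Klf10 and Klf7, and were apart elsewhere. Klf9 stayed first in all 6 groups and made up 32.1% to 48.5% of the summed FPKM of the 10 genes. That sum was 82.2 and 78.3 FPKM in WT PBS, 41.8 and 38.6 in WT NMDA, 80.2 and 82.4 in shPax6 PBS, 108.1 and 107.9 in shPax6 NMDA, 71.1 and 77.0 in JNK3 KO PBS, and 86.0 and 87.2 in JNK3 KO NMDA. The family's total was thus lowest in WT NMDA and highest in shPax6 NMDA. Klf10 moved from the sixth place in WT PBS to the second in shPax6 NMDA, where its libraries overlapped those of Klf6, and Klf12 and Klf7 moved to the eighth and ninth in WT NMDA.

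**Figure D1:**
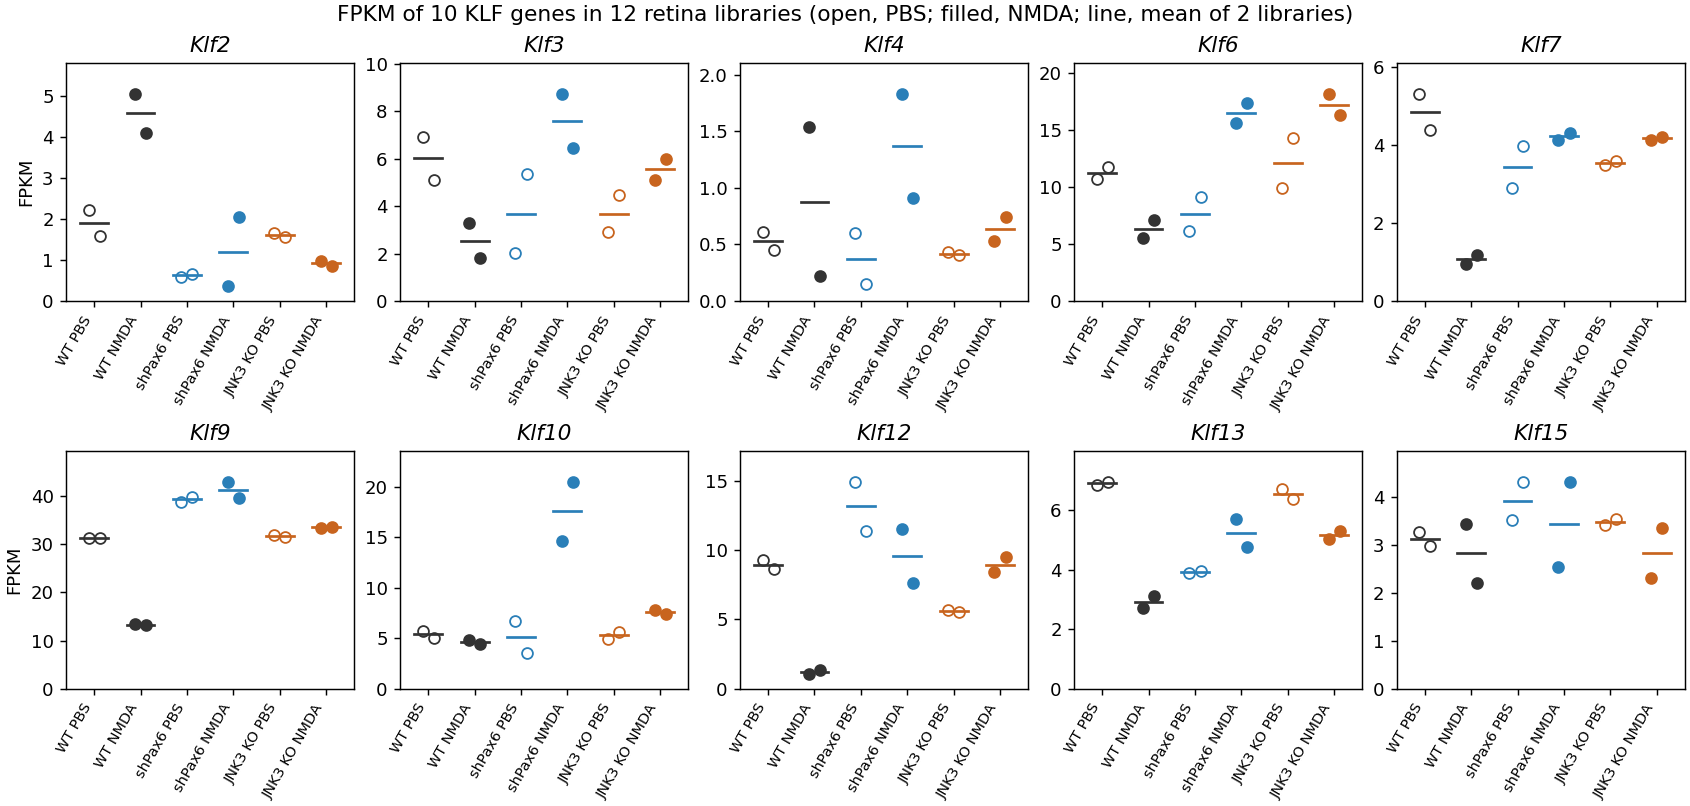
FPKM (y axis, from 0, its own scale in each panel) of the 10 KLF genes in the 12 libraries by group (x axis), with open points for PBS, filled points for NMDA and a line at the mean of 2 libraries. The WT NMDA points of Klf7, Klf9, Klf12 and Klf13 lie below those of every other group, and the shPax6 NMDA points of Klf10 above them.

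After NMDA in WT retinas, 6 of the 10 KLF genes fell, namely Klf12, Klf7, Klf3, Klf9, Klf13 and Klf6, and none rose. Over all genes tested 33.8% were called lower and 26.0% higher in this comparison, and with every library rescaled to the same total (TPM) 47.4% were lower and 12.5% higher. The median log2 difference of the 10 KLF genes was -1.02, against -0.09 over all genes on the FPKM scale, and in TPM the medians were -1.60 and -0.68. Both NMDA libraries lay below both PBS libraries for 7 of the 10, against 44.3% of all genes, and above them for 1 (Klf2), against 36.9%.

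In shPax6 retinas NMDA was followed by a rise of 2 KLF genes, Klf10 and Klf6, and none fell, where 19.1% of all genes were called higher and 11.0% lower. The median of the 10 was 0.43, against 0.10 over all genes, and both NMDA libraries lay above both PBS libraries for 6 of the 10, against 35.0% of all genes, and below them for none, against 22.0%. Klf4, whose difference in shPax6 was favoured by the filter, is among these 6 and also enters the median. In JNK3 KO retinas none of the 10 was called in limma in either direction, with 4.33% of all genes called higher and 6.10% lower. The median of the 10 was 0.36, against -0.01 over all genes. Their libraries did not overlap for any of the 10 genes, with 7 higher and 3 lower after NMDA, where 28.7% of all genes were higher in both libraries and 32.8% lower.

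**Figure D2:**
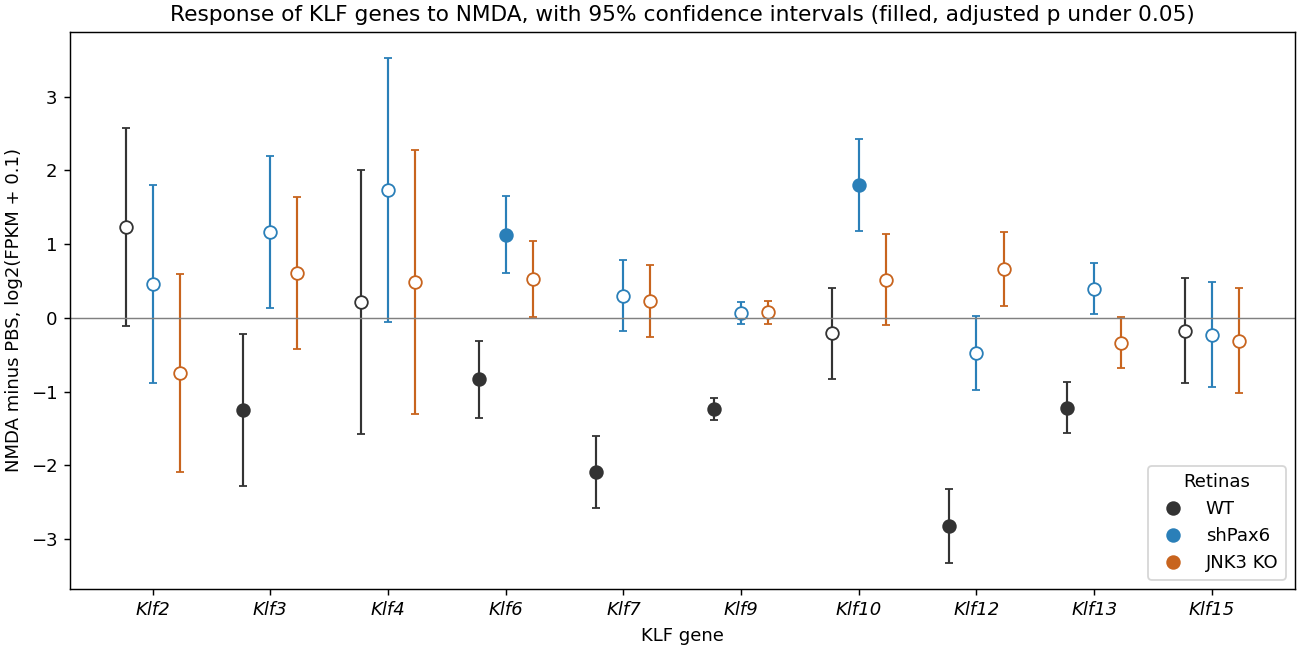
Difference between NMDA and PBS on the scale log2(FPKM + 0.1) (y axis) for each KLF gene (x axis) in WT, shPax6 and JNK3 KO retinas, with 95% confidence intervals from limma and filled points for an adjusted p under 0.05. The WT points of Klf3, Klf6, Klf7, Klf9, Klf12 and Klf13 are filled and below 0, while Klf6 and Klf10 are filled above 0 in shPax6 retinas.

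Klf12 and Klf3 encode repressors that bind the corepressor CtBP. Klf12 (ENSMUSG00000072294, chr14:99870632-100284679, minus strand) measured 9.26 and 8.62 FPKM in the WT PBS libraries, against 1.04 and 1.33 in WT NMDA, 14.94 and 11.4 in shPax6 PBS and 11.56 and 7.6 in shPax6 NMDA, and 5.67 and 5.54 in JNK3 KO PBS and 8.41 and 9.48 in JNK3 KO NMDA. The 2 WT NMDA libraries were the lowest of the 12 and far from all others, whereas the shPax6 libraries overlapped between PBS and NMDA. Klf12 fell by 2.82 ± 0.22 (SE) on the log2 scale in WT (0.141-fold, limma adjusted p = 5.3e-06), the largest fall among the 10. In shPax6 retinas the difference was -0.47 ± 0.22 (adjusted p = 0.144) and in JNK3 KO retinas 0.66 ± 0.22 (adjusted p = 0.1), which was called without shPax6 NMDA replicate 2 (limma adjusted p = 0.0492). The shPax6 difference was called without shPax6 NMDA replicate 1 (-0.77, limma adjusted p = 0.037). After the length correction the fall in WT was 1.77 on the log2 scale, still called (limma adjusted p = 0.00021).

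Klf3 (ENSMUSG00000029178, chr5:64803388-64832901, plus strand) measured 6.91 and 5.12 FPKM in the WT PBS libraries, against 3.3 and 1.8 in WT NMDA. Its libraries were at 2.01 and 5.36 FPKM in shPax6 PBS, 8.72 and 6.44 in shPax6 NMDA, 2.89 and 4.46 in JNK3 KO PBS, and 5.12 and 6.0 in JNK3 KO NMDA. NMDA libraries were thus below the PBS libraries in WT and above them in both other genotypes, with wide gaps between libraries of 1 group. The WT difference was -1.25 ± 0.46 (limma adjusted p = 0.0391). This call was lost with the length correction (-0.62, limma adjusted p = 0.292) and when 1 library was left out in 8 of 12 cases, with adjusted p of 0.0502 to 0.234. It held without WT NMDA replicate 1, either shPax6 PBS library or JNK3 KO PBS replicate 1. It was also lost without the filter (limma adjusted p = 0.0708), without the intensity trend (0.0584) and with quantile scaling (0.13). In shPax6 the difference was 1.16 ± 0.46 (adjusted p = 0.0854) and in JNK3 KO 0.61 ± 0.46 (0.474). On the opposite strand of Klf3 Gm20033 was listed at 0 to 2.64 FPKM.

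Klf6 and Klf7 are the members known to favour axon growth. Klf6 (ENSMUSG00000000078, chr13:5861482-5870394, plus strand), also an injury-induced gene in other tissues, measured 10.69 and 11.82 FPKM in the WT PBS libraries, against 5.51 and 7.13 in WT NMDA. It measured 6.15 and 9.13 FPKM in shPax6 PBS, 15.62 and 17.42 in shPax6 NMDA, 9.9 and 14.32 in JNK3 KO PBS, and 18.18 and 16.33 in JNK3 KO NMDA. The groups did not overlap in any of the 3 genotypes, with NMDA lower in WT and higher in the others. Klf6 fell by 0.83 ± 0.23 in WT (limma adjusted p = 0.0111) and rose by 1.13 ± 0.23 in shPax6 (2.19-fold, limma adjusted p = 0.00565), and its difference in JNK3 KO was 0.53 ± 0.23 (adjusted p = 0.196). The fall in WT was no longer called after the length correction (-0.13, limma adjusted p = 0.687), while the rise in shPax6 was (1.08, 0.00743). The WT call was also lost without WT PBS replicate 2 (limma adjusted p = 0.0654), without WT NMDA replicate 1 (0.0835) and with quantile scaling (-0.52, 0.0861).

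Klf7 (ENSMUSG00000025959, chr1:64029447-64122282, minus strand) measured 5.3 and 4.38 FPKM in the WT PBS libraries, against 0.94 and 1.19 in WT NMDA. It was at 2.9 and 3.98 FPKM in shPax6 PBS, 4.12 and 4.31 in shPax6 NMDA, 3.49 and 3.58 in JNK3 KO PBS, and 4.13 and 4.21 in JNK3 KO NMDA. The WT NMDA libraries were the 2 lowest of the 12, and the remaining 10 lay between 2.9 and 5.3 FPKM. Klf7 fell by 2.09 ± 0.21 in WT (0.235-fold, limma adjusted p = 2.84e-05), and the fall was 0.68 after the length correction, still called (limma adjusted p = 0.0226). The differences in shPax6 (0.30 ± 0.21, adjusted p = 0.326) and JNK3 KO (0.23 ± 0.21, 0.578) were not called, although both NMDA libraries lay above both PBS libraries in each of these genotypes. On the opposite strand Gm13748 was listed at 0 to 0.78 FPKM. Opposite Klf12 lay 4930517O19Rik, at 0 to 0.46 FPKM, and opposite Klf13 Gm27252, at 0 to 0.94, and E030018B13Rik, at 0 to 0.05. No strand setting of the counting is stated, so reads of Klf3, Klf7, Klf12 or Klf13 and of these opposite-strand genes cannot be told apart.

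Klf9, Klf13 and Klf10 encode members of the branch that binds the corepressor Sin3A. Klf9 (ENSMUSG00000033863, chr19:23141226-23168134, plus strand), a target of glucocorticoid and thyroid hormone receptors that restrains axon growth, had the closest replicates of the family. It measured 31.4 and 31.33 FPKM in the WT PBS pair, 13.41 and 13.14 in WT NMDA, 38.91 and 39.89 in shPax6 PBS, 43.04 and 39.57 in shPax6 NMDA, 32.02 and 31.61 in JNK3 KO PBS, and 33.49 and 33.56 in JNK3 KO NMDA. WT NMDA was thus the only group below 31 FPKM. Klf9 fell by 1.23 ± 0.07 in WT (0.425-fold, limma adjusted p = 5.71e-07), with a smaller fall of 0.30 after the length correction (limma adjusted p = 0.00586). Its 95% interval was -0.08 to 0.22 in shPax6 and -0.08 to 0.23 in JNK3 KO, so that on this scale a change larger than about 0.23 lay outside both.

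Klf13 (ENSMUSG00000052040, chr7:63886351-63938915, minus strand), known in T lymphocytes as an activator of Ccl5, measured 6.85 and 6.95 FPKM in the WT PBS libraries, against 2.72 and 3.12 in WT NMDA. It was at 3.89 and 3.95 FPKM in shPax6 PBS, 5.69 and 4.74 in shPax6 NMDA, 6.71 and 6.38 in JNK3 KO PBS, and 5.03 and 5.31 in JNK3 KO NMDA. The NMDA libraries were lower in WT and JNK3 KO and higher in shPax6, without overlap. Klf13 fell by 1.22 ± 0.15 in WT (0.43-fold, limma adjusted p = 0.000103), but after the length correction the difference was 0.02 (limma adjusted p = 0.937). The difference in shPax6 was 0.40 ± 0.15 (adjusted p = 0.0798) and in JNK3 KO -0.33 ± 0.15 (0.222), and the first was called after the length correction (0.47, limma adjusted p = 0.0465).

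Klf10 (ENSMUSG00000037465, chr15:38291463-38300706, minus strand), an early response gene of TGF-beta signalling, measured 5.71 and 5.04 FPKM in the WT PBS libraries, against 4.86 and 4.4 in WT NMDA. It was at 6.72 and 3.57 FPKM in shPax6 PBS but at 14.67 and 20.51 in shPax6 NMDA, and at 4.96 and 5.57 in JNK3 KO PBS and 7.77 and 7.38 in JNK3 KO NMDA. Both shPax6 NMDA libraries were above the other 10. Klf10 rose by 1.80 ± 0.27 in shPax6 (3.49-fold, limma adjusted p = 0.00118), the largest rise of the family, and by 1.68 after the length correction (limma adjusted p = 0.00168). The differences were -0.21 ± 0.27 in WT (adjusted p = 0.539) and 0.52 ± 0.27 in JNK3 KO (0.29), and in TPM the former was called (-0.78, limma adjusted p = 0.035).

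Klf2 and Klf4 encode regulators of endothelial and myeloid genes, and KLF4 is also a reprogramming factor. Klf2 (ENSMUSG00000055148, chr8:72319033-72321656, plus strand) measured 2.21 and 1.59 FPKM in the WT PBS pair, 5.04 and 4.1 in WT NMDA, 0.59 and 0.66 in shPax6 PBS, 0.36 and 2.05 in shPax6 NMDA, 1.66 and 1.55 in JNK3 KO PBS, and 0.98 and 0.86 in JNK3 KO NMDA. Both WT NMDA libraries were above all others, while the shPax6 NMDA libraries differed widely. The difference was 1.23 ± 0.59 in WT (2.35-fold, limma adjusted p = 0.103), 0.46 ± 0.59 in shPax6 (0.604) and -0.74 ± 0.59 in JNK3 KO (0.51), and none was called. Without shPax6 NMDA replicate 1 the shPax6 difference was 1.57 and called (limma adjusted p = 0.00667), and without replicate 2 it was -0.65 and not called. The WT difference was called without either of these libraries (limma adjusted p = 0.0024 and 0.00264), with a pseudocount of 1 (0.94, 0.0306), with quantile scaling (1.65, 0.0223) and with the spread of the WT groups alone (0.00998).

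Endothelial markers summed to 64.8 to 68.11 FPKM in WT PBS, 41.1 to 44.37 in WT NMDA, 49.95 to 50.85 in shPax6 PBS, 71.6 to 78.35 in shPax6 NMDA, 61.68 to 65.32 in JNK3 KO PBS and 88.08 to 88.54 in JNK3 KO NMDA, and none of the 8 was listed at 0. The low sum in WT NMDA was mostly that of Kdr, at a mean of 12.8 against 40.8 FPKM in WT PBS, and Flt1 fell too (-0.80 ± 0.11), whereas Cldn5 rose (1.35 ± 0.33, limma adjusted p = 0.00592). These marker values are given without the length correction, and the part of the length trend in them was not tested. The highest Klf2 level, in WT NMDA, went with these mixed endothelial values and with the highest neutrophil sum. Microglia and macrophage markers summed to 128.8 to 140.4 FPKM in WT PBS and 213.0 to 213.1 in WT NMDA. They were at 63.3 to 64.7 FPKM in shPax6 PBS, 375.3 to 379.5 in shPax6 NMDA, 106.4 to 115.2 in JNK3 KO PBS and 85.9 to 86.4 in JNK3 KO NMDA. Their highest sum was thus in shPax6 NMDA and not in WT NMDA. The part of any of these cell types was not tested. Klf4 (ENSMUSG00000003032, chr4:55527143-55532466, minus strand) was listed below 2 FPKM throughout, at 0.61 and 0.45 in WT PBS, 1.54 and 0.22 in WT NMDA, 0.6 and 0.15 in shPax6 PBS, 1.83 and 0.91 in shPax6 NMDA, 0.43 and 0.41 in JNK3 KO PBS, and 0.53 and 0.74 in JNK3 KO NMDA. Its WT NMDA libraries differed more from each other than the groups did. The difference was 1.74 ± 0.79 in shPax6 (limma adjusted p = 0.132), 0.21 ± 0.79 in WT (0.844) and 0.48 ± 0.79 in JNK3 KO (0.789), with intervals over 3 wide on the log2 scale.

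Klf15 (ENSMUSG00000030087, chr6:90462576-90475238, plus strand), a glucocorticoid target that controls amino acid metabolism and represses rod genes in the retina, was the steadiest low member. It measured 3.27 and 2.98 FPKM in the WT PBS pair, 3.43 and 2.21 in WT NMDA, 3.51 and 4.3 in shPax6 PBS, 2.53 and 4.31 in shPax6 NMDA, 3.4 and 3.54 in JNK3 KO PBS, and 2.31 and 3.35 in JNK3 KO NMDA. Its libraries overlapped between PBS and NMDA in WT and shPax6. The differences were -0.17 ± 0.31 in WT (limma adjusted p = 0.664), -0.23 ± 0.31 in shPax6 (0.628) and -0.31 ± 0.31 in JNK3 KO (0.624), and the intervals spanned -0.88 to 0.53, -0.94 to 0.48 and -1.02 to 0.40.

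The WT differences of the KLF genes were set against transcript length. Weighted by the transcripts' FPKM, the spliced lengths were 7130 bases for Klf7, 5923 for Klf13, 4935 for Klf12, 4456 for Klf9, 3744 for Klf6, 3528 for Klf3, 2709 for Klf10, 2359 for Klf4, 2240 for Klf15 and 1847 for Klf2. The 6 genes that fell were the 6 longest of the 10. Among all genes above 4 kb 80.9% were called lower in WT, and among those of 2 to 4 kb 41.0%. After the length correction 3 of the 10, Klf12, Klf7 and Klf9, were still called lower, against 21.9% of all genes, and the median of the 10 was -0.14 in place of -1.02. The size of the WT falls therefore depended on this correction for every one of the 6, and Klf12 kept the largest.

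**Figure D3:**
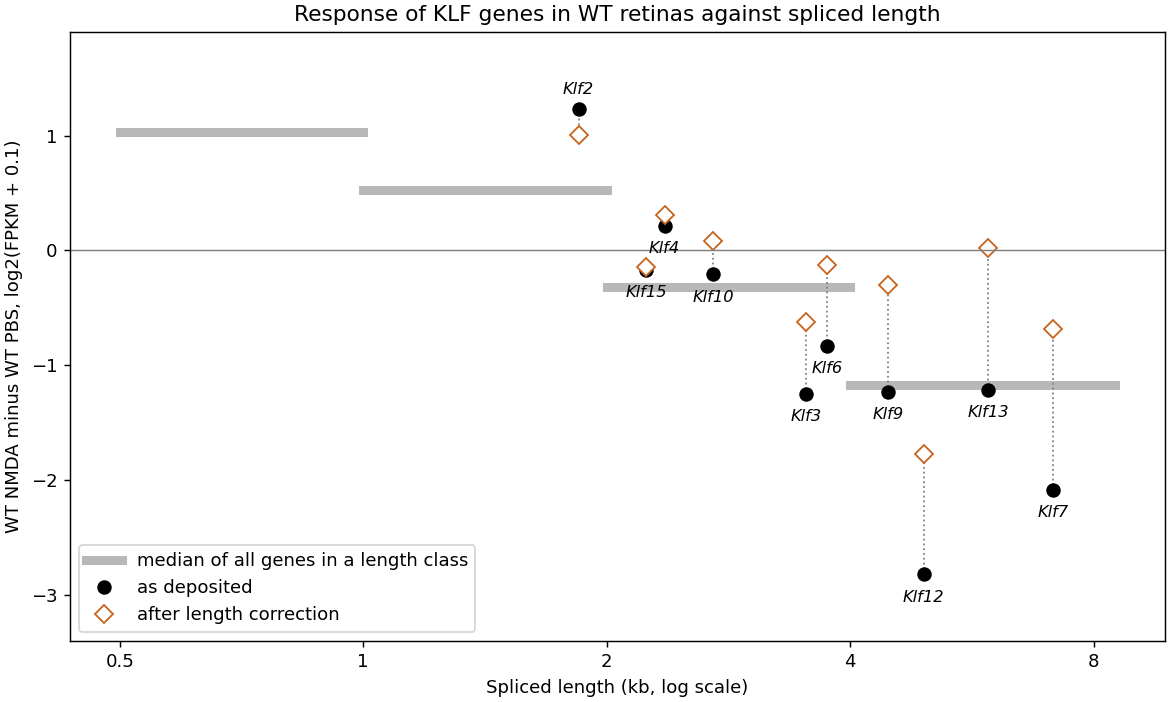
Difference between WT NMDA and WT PBS on the scale log2(FPKM + 0.1) (y axis) against the spliced length of each KLF gene in kb (x axis, log scale), as deposited (filled circles) and after the length correction (open diamonds), with grey bars at the median of all genes in each of 4 length classes. The long genes Klf13, Klf9 and Klf6 move to -0.30 or nearer to 0 with the correction, while Klf12 stays at -1.77.

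The responses were then compared between genotypes by the difference of differences, in which WT and either other genotype share no library, but both comparisons use the same WT libraries and are not independent of each other. Against shPax6, the WT response was lower for 7 of the 10, Klf3, Klf6, Klf7, Klf9, Klf10, Klf12 and Klf13, and higher for none, where 31.4% of all genes were called lower and 18.3% higher. The values were -2.41 ± 0.64 for Klf3, -2.39 ± 0.30 for Klf7, -2.35 ± 0.315 for Klf12, -2.01 ± 0.39 for Klf10, -1.96 ± 0.32 for Klf6, -1.61 ± 0.22 for Klf13 and -1.30 ± 0.09 for Klf9, with limma adjusted p between 1.1e-05 and 0.0125. Klf10 was in this set through its rise in shPax6 retinas, since it was not called in WT. The Klf3 call was lost without WT PBS replicate 1 (limma adjusted p = 0.0527) or shPax6 NMDA replicate 1 (0.0576). After the length correction 5 remained called, Klf6, Klf7, Klf9, Klf10 and Klf12, against 16.6% of all genes called lower.

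Against JNK3 KO, the WT response was lower for 6 of the 10, Klf3, Klf6, Klf7, Klf9, Klf12 and Klf13, and higher for none, where 27.9% of all genes were called lower and 23.5% higher. The values were -3.49 ± 0.315 for Klf12, -2.32 ± 0.30 for Klf7, -1.86 ± 0.64 for Klf3, -1.36 ± 0.32 for Klf6, -1.31 ± 0.09 for Klf9 and -0.88 ± 0.22 for Klf13, with limma adjusted p between 5.92e-06 and 0.0366. The Klf3 call was lost in 8 of 12 fits with 1 library left out (limma adjusted p of 0.0562 to 0.128), without the filter (0.0682), without the intensity trend (0.0559) and with quantile scaling (0.086), which also ended the Klf13 call (0.0813). Klf2 had the opposite sign, at 1.98 ± 0.84 (limma adjusted p = 0.0775), and was called without either shPax6 NMDA library (0.0017 and 0.00186). After the length correction Klf12 alone remained called, at -2.31 (limma adjusted p = 0.000605), against 15.6% of all genes called lower, and Klf13 turned to 0.53 (limma adjusted p = 0.0858). Both comparisons, with or without the correction, rest on the 2 WT NMDA libraries that stood apart.

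Under PBS alone, shPax6 retinas differed from WT in 2 KLF genes. Klf13 was lower, at a mean of 3.92 against 6.90 FPKM (-0.80 ± 0.15, 0.574-fold, limma adjusted p = 0.00759) and Klf9 higher, at 39.4 against 31.4 FPKM (0.33 ± 0.07, 1.26-fold, limma adjusted p = 0.0106). Over all genes 11.2% were called lower and 5.36% higher, and the median of the 10 was -0.53, against -0.06 over all genes. Both calls were lost without either WT PBS library, with limma adjusted p of 0.0515 and 0.0596 for Klf13 and of 0.0593 and 0.0676 for Klf9, at nearly unchanged differences. Klf2, at 0.59 and 0.66 FPKM against 2.21 and 1.59, did not overlap between the groups but was not called (-1.45 ± 0.59, limma adjusted p = 0.139), although it was without either shPax6 NMDA library (limma adjusted p = 0.0057 and 0.0061). Without shPax6 PBS replicate 2, 4 members were called, Klf3 (-1.52) and Klf6 (-0.86) in addition to Klf13 and Klf9. JNK3 KO retinas under PBS differed from WT in none of the 10 in limma, with 1.10% of all genes called higher and 0.407% lower. Klf12, at 5.67 and 5.54 against 9.26 and 8.62 FPKM, had the lowest adjusted p of the 10 (-0.66 ± 0.22, limma adjusted p = 0.195).

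The transcript table separated the members further. A single transcript carried 92.0% to 100% of the FPKM of Klf2, Klf7, Klf9 and Klf13, and 59.8% to 86.0% of the others'. In WT the main transcripts of the same 6 genes fell, at -2.93 ± 0.18 for Klf12-205, -2.21 ± 0.36 for Klf3-201, -1.91 ± 0.26 for Klf7-202, -1.22 ± 0.07 for Klf9-201, -1.12 ± 0.21 for Klf13-201 and -0.63 ± 0.20 for Klf6-201. These calls came from a separate fit of 49940 transcripts, in which the main transcript of Klf4 was not tested. The share of all transcripts called lower was not counted, and no length correction was made in that fit. Klf3-201 measured 3.98 and 3.5 FPKM in the WT PBS libraries, against 1.01 and 0.52 in WT NMDA, and the second transcript Klf3-206 was at 2.82 and 1.26 in WT PBS. Klf10-201 was at 14.67 and 14.87 FPKM in shPax6 NMDA and at 2.87 and 3.57 in shPax6 PBS, where Klf10-205 (3.85 FPKM in replicate 1, 0 in replicate 2) made up the rest of the first library.

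Klf10-202, a coding transcript of 2917 bases, was listed at 0 in both WT PBS libraries and all 4 shPax6 libraries, at 4.86 and 1.46 FPKM in WT NMDA, at 4.01 and 3.25 in JNK3 KO PBS and at 2.28 and 1.35 in JNK3 KO NMDA. Klf10-201, of 3044 bases, was at 4.79 and 4.61 FPKM in WT PBS, 0 and 2.94 in WT NMDA, 0.95 and 2.32 in JNK3 KO PBS, and 5.27 and 6.03 in JNK3 KO NMDA. The gene's level was thus split differently between 2 similar transcripts from library to library, and a 0 in such estimates can be a failed split. Klf10-201 was not called in shPax6 (2.17 ± 1.29, limma adjusted p = 0.375), although the gene was. Klf15 showed the same kind of split, with Klf15-201 at 3.32 and 2.09 FPKM in shPax6 PBS but at 0.64 and 0 in WT PBS.

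**Figure D4:**
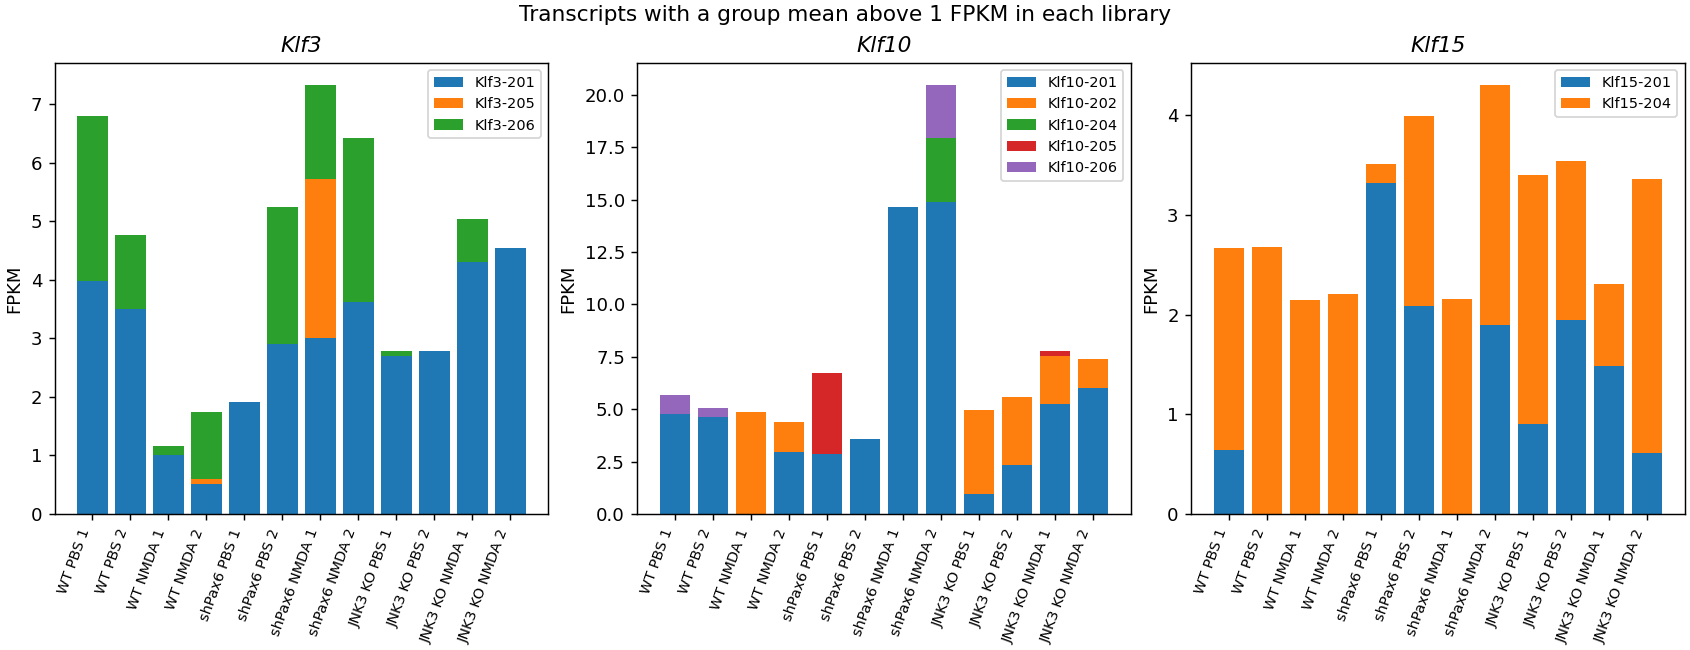
FPKM (y axis) of the transcripts of Klf3, Klf10 and Klf15 with a group mean above 1 FPKM, stacked for each of the 12 libraries (x axis, group and replicate). Klf10-201 exceeds 14 FPKM in both shPax6 NMDA libraries, and Klf10-202 is present in WT NMDA and JNK3 KO libraries only.

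Members were also compared by their pattern over the 12 libraries, given as descriptions because groups share libraries and scale. Klf12 and Klf9 were the most alike pair (Pearson r = 0.96 on the log2 scale, n = 12 libraries), followed by Klf9 and Klf7 (0.90) and Klf12 and Klf7 (0.89), and Klf2 was the least like Klf12 (-0.85). Among 14623 genes with a mean above 1 FPKM over all libraries, the gene most like Klf9 was Tapt1 (0.996), most like Klf12 Marchf6 (0.993), most like Klf7 Trpm3 (0.99), most like Klf10 Aldh18a1 (0.975), most like Klf13 Sulf1 (0.962), most like Klf3 the pseudogene Gm18588 (0.96), most like Klf6 Rnf4 (0.952), most like Klf2 Deaf1 (0.945) and most like Klf15 the pseudogene Gm40466 (0.848). All of these points share the difference of the WT NMDA libraries from the rest.

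Related genes were counted in the same fit, where 33.8% of all genes were called lower and 26.0% higher in WT, 11.0% and 19.1% in shPax6, and 6.10% and 4.33% in JNK3 KO. Of 8 other KLF genes 7 were in the table and 2 were tested, Klf11, a close relative of Klf10, and Klf16. Klf11 fell in WT (-0.76 ± 0.28, limma adjusted p = 0.0435) and rose in shPax6 (0.96 ± 0.28, 0.0312), and Klf16 was not called in either. The WT fall of Klf11 was no longer called after the length correction. Of the 5 SP factors tested, which bind the same GC boxes, 4 fell in WT, with Sp4 at -3.11 ± 0.12, Sp3 at -1.98 ± 0.16, Sp1 at -1.54 ± 0.15 and Sp2 at -0.50 ± 0.12. In shPax6 1 of the 5 fell (Sp4, -0.58 ± 0.12) and in JNK3 KO 1 rose (Sp4, 0.47 ± 0.12, limma adjusted p = 0.0412). Of 8 tested partners of KLF proteins, 6 fell and 1 rose in WT: the acetyltransferase genes Ep300 (-2.50 ± 0.21), Kat2b (-1.495 ± 0.12) and Crebbp (-1.14 ± 0.15), the ubiquitin ligase gene Wwp1 (-1.60 ± 0.15) and the corepressor genes Sin3a (-0.44 ± 0.15) and Ctbp2 (-0.41 ± 0.06) fell, and Sin3b rose (0.97 ± 0.09). In shPax6 1 rose (Sin3b) and 1 fell (Ctbp1), and in JNK3 KO none of the 8 was called. The median of the SP factors was -1.54 and that of the partners -0.79 in WT, against -0.09 over all genes. These medians were -0.0963 and -0.004 after the length correction, against 0.0171 over all genes. Of the SP factors Sp3 and Sp4 were then still lower, and of the partners Ep300 and Kat2b, while Crebbp and Sin3a turned to higher beside Sin3b.

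Genes that share an inducer with a KLF gene or are known KLF targets were counted in the same way. Of 8 tested glucocorticoid response genes, which share their inducer with Klf9 and Klf15, 5 fell and 1 rose in WT, 4 rose in shPax6 and none was called in JNK3 KO, and 2 were higher in shPax6 than in WT under PBS, Sgk1 (0.88 ± 0.08) and Ddit4 (0.62 ± 0.07). With the length correction 3 of the 8 were lower and 1 higher in WT, and in shPax6 none was higher and 1 was lower, so the rises in shPax6 were all lost. Of 5 TGF-beta early response genes, which share their inducer with Klf10, 3 rose in shPax6, among them Tgif1 (2.39 ± 0.19) and Ccn2 (1.29 ± 0.13), while 2 rose and 1 fell in WT and 1 rose in JNK3 KO. Of 6 genes known as targets of KLF2 or KLF4, the same 2 rose in each genotype, Thbd (3.13 ± 0.40 in WT, 2.69 ± 0.40 in shPax6, 2.31 ± 0.40 in JNK3 KO) and S1pr1 (0.94 ± 0.10, 0.92 ± 0.10 and 1.25 ± 0.10). Of 4 tested targets of KLF15, 2 rose in WT, Bcat2 (1.60 ± 0.15) and Prodh (1.28 ± 0.17), 2 rose and 1 fell in shPax6 and none was called in JNK3 KO. After the length correction Thbd and S1pr1 were still higher in each genotype, and Bcat2 and Prodh in WT. Nos3, a KLF2 or KLF4 target, was then also higher in WT, and the KLF15 target Kcnip2 was lower there. Of the KLF15 targets 1 was then higher in shPax6 (Gpt) and 1 lower (Kcnip2). Of the TGF-beta genes 4 were then higher in shPax6, while 2 were higher and 1 lower in WT and 1 was higher in JNK3 KO.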

How the data were processed

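Retinal poly(A) RNA was prepared by the authors with a TruSeq mRNA kit and sequenced as paired ends. Per the labels and the study's methods, reads were aligned to GRCm38.p6 with STAR 2.7.1a and quantified with RSEM 1.3.3, and the authors deposited FPKM per gene and per transcript, whose read depth is unknown. Both tables were matched to GENCODE M21 by identifier (55227 of 55487 genes, 141469 of 142699 transcripts). The KLF genes and all gene lists were chosen with earlier results of these data known.

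After a log2(FPKM + 0.1) transform, the 16471 genes whose mean exceeded 1 FPKM in any of the 6 groups were fitted with 6 group means in limma 3.58.1 (R 4.3.3), with an intensity trend and 6 residual degrees of freedom. Calls used a Benjamini-Hochberg adjusted p under 0.05 over all genes. No columns were left out. The length correction subtracted from each library a lowess curve (span 0.3) of its deviation from the gene mean on log2 spliced length, over 16452 genes. Tried as alternatives were a pseudocount of 1 or 0.5, dropping the filter or applying it to the mean of 12 libraries, scaling to TPM, by quantiles or to the 75th percentile, a spread from only the groups compared, a fit without the intensity trend, a replicate block, the length correction, a fold rule (unadjusted p under 0.05, an absolute log2 difference above 1 and a mean above 1 FPKM, after the study's cutoffs but without its variance-mean ratio), transcripts in place of genes, and each library left out. The fit without both WT NMDA libraries was added after the data were seen. The 2 libraries of a group differed by a median of 0.112 to 0.252 on the log2 scale. In a simulation of the WT comparison 200 of 16471 genes were changed. Of these, 49 of 100 changes of 1 and 66 of 100 changes of 2 on the log2 scale were called, with 9 false calls. In the data 33.8% of genes were called lower and 26.0% higher in WT. The adjusted cutoff was therefore stricter in the simulation, and its rates do not carry over to the WT comparison.

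Lists were other KLF genes, SP factors, KLF partner proteins, glucocorticoid response, KLF2/KLF4 targets, TGF-beta early response and KLF15 targets, and markers of RGCs, amacrine, bipolar, rod, cone, Müller glia, endothelial, microglia and macrophage, neutrophil, lens, RPE and cornea cells. In WT after NMDA, higher and lower calls among the tested markers were 0 and 6 of 8 for RGCs, 0 and 5 of 5 for amacrine, 0 and 4 of 5 for bipolar, 2 and 2 of 5 for rod, 0 and 2 of 4 for cone, 1 and 4 of 5 for Müller glia, 1 and 2 of 8 for endothelium, 3 and 4 of 8 for microglia and macrophages, 4 and 0 of 6 for neutrophils, 2 and 0 of 3 for lens, 1 and 1 of 2 for RPE, and 0 and 0 of 1 for cornea. Named were all 10 KLF genes, Pax6 and Mapk10, list genes called in at least 1 comparison, the genes outside the family with the highest Pearson r to each member, and transcripts with a group mean above 1 FPKM. Some genes that this rule names are not reported here. Promoters were read from RefSeq. Figures were drawn with matplotlib 3.10.9 in Python 3.11.15.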

Additional observations from a re-analysis of the deposited data

Results flagged for a closer look

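The response to NMDA differed between genotypes for 13 pairs of a KLF gene and a comparison, tested as the difference of differences in limma with an adjusted p under 0.05. All rest on the 2 WT NMDA libraries and share the 2 WT PBS libraries. For WT minus shPax6 the values on the log2 scale were -2.41 for Klf3, -1.96 for Klf6, -2.39 for Klf7, -1.30 for Klf9, -2.01 for Klf10, -2.35 for Klf12 and -1.61 for Klf13. After the length correction they were -1.72, -1.20, -1.09, -0.37, -1.60, -1.33 and -0.45 in the same order, and Klf3 and Klf13 were no longer called. For WT minus JNK3 KO the values were -1.86 for Klf3, -1.36 for Klf6, -2.32 for Klf7, -1.31 for Klf9, -3.49 for Klf12 and -0.88 for Klf13. After the length correction they were -1.18, -0.59, -0.68, -0.28, -2.31 and 0.53 in the same order, and only Klf12 was still called. Groups of 2 libraries were too small for a check of single outlying samples.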

How the results depend on the processing

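The number of KLF genes called was 6 for the NMDA response in WT, 2 in shPax6, 0 in JNK3 KO, 2 for shPax6 against WT under PBS, 0 for JNK3 KO against WT under PBS, 7 for WT minus shPax6 and 6 for WT minus JNK3 KO. With the length correction it was 3 in WT and 1 for WT minus JNK3 KO, and Klf13 turned to 0.0185 in WT and to 0.53 for WT minus JNK3 KO. With the spread of the groups compared alone it was 1 in JNK3 KO (Klf12), with 16.2% of all genes called, and 1 for shPax6 against WT under PBS, with 9.84%. With the rule of an unadjusted p and a log2 difference above 1 it was 1 for shPax6 against WT under PBS, with 5.98% of all genes called. That gene was Klf2, not Klf13 or Klf9, whose differences were smaller than 1 in size. With transcripts in place of genes the number was 1 for the NMDA response in shPax6. When 1 library at a time was left out, counts ranged from 4 to 6 in WT, 2 to 4 in shPax6 (4 without shPax6 NMDA replicate 1), 0 to 1 in JNK3 KO (1 without shPax6 NMDA replicate 2), 0 to 4 for shPax6 against WT under PBS, 0 to 0 for JNK3 KO against WT under PBS, 6 to 8 for WT minus shPax6 and 5 to 7 for WT minus JNK3 KO, where a group left with 1 library is assumed to vary like the others. The replicate numbers did not pair the libraries (15 pairs of groups, correlations of -0.097 to 0.086), and with the replicate block the counts were 5, 2, 0, 2, 0, 7 and 6 in the order above, with the Klf3 call in WT lost (limma adjusted p = 0.0526). Without both WT NMDA libraries, the 4 counts that do not use them were 2, 0, 2 and 0. Under pseudocounts of 1 and 0.5, no filter, the filter on the mean of 12 libraries, TPM, 75th-percentile and quantile scaling and no intensity trend, each of the 7 counts stayed within 1.5 times its value. The depth behind an FPKM value is unknown, so the counting error of low genes such as Klf4 and Klf2 could not be given.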
